A study of Mus musculus with 147 samples.

Results

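The 10 classical cell-cycle cyclins, Ccna1, Ccna2, Ccnb1, Ccnb2, Ccnb3, Ccnd1, Ccnd2, Ccnd3, Ccne1 and Ccne2, were followed through male germ cell development of the mouse, from E8.5 (embryonic day 8.5) to the adult testis. They were taken by name and are 10 of the 31053 genes of a single-cell table of unique molecular identifiers (UMIs, 1 for each captured RNA molecule). The series holds 13032 single cells, 11896 of them wild-type. Of the 10224 wild-type cells from E8.5 on, 9972 passed the study's limits of over 2000 genes and 10000 to 1000000 UMIs, and 8421 of these were called germ cells from marker genes, none of them a cyclin.

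All mice were bred from C57BL/6 females and BVSC males, which carry the reporters Blimp1-mVenus and Stella-ECFP, so every cell analysed here came from this cross. Cells before birth were sorted for these reporters, and 1 replicate pooled several embryos. The cells came from whole embryos at E8.5, E9.5 and E10.5 and from gonads at E11.5 to E18.5. From E14.5 on, cells positive for Stella-ECFP alone were collected, because the Blimp1-mVenus signal falls. Males were selected by PCR for the Sry gene at E10.5 and E11.5, and the study names no sexing at E8.5 and E9.5. Pools of those earlier days may thus hold both sexes. After birth (PND, postnatal day) each replicate was 1 mouse, and cells that looked like germ cells were picked by mouth pipette. Cells of PND30 were sorted by DNA content with Hoechst dye into 1N, 2N and 4N cells, and adult mice were 8 to 10 weeks old. Part of the PND14 cells also carry a 2N or 4N label. All germ cells of 1 replicate at 1 time-point were summed into 1 pool, which gave 58 pools of 13 to 447 cells over 26 time-points. Levels are given as CPM, the UMIs of a gene per 1000000 UMIs of its pool. The method counts the 3′ ends of transcripts, so that a CPM is not divided by transcript length and a long transcript gains no counts from its length. A CPM of a pool cannot tell fewer positive cells from less RNA per cell, so shares of single cells are given as well.

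The pools held 6395996 to 187788707 UMIs, with a median of 34652442, and a germ cell held a median of 305014. E8.5 replicate 1 gave 0 germ cells, so E8.5 rests on replicates 2 and 3, the latter with 13 cells, and PND2 replicate 1 had 25 cells. Replicates 1 and 2 stood apart from each other at PND12, PND14 and in the adult. All 96 cell barcodes recur in more than 1 library, as the same set was reused. For tests, time-points were joined into windows: migrating primordial germ cells (PGCs) of E8.5 to E10.5 (7 pools), mitotic PGCs of E11.5 to E13.5 (6 pools), germ cells of E15.5 to PND0, within the mitotic arrest (10 pools), PND2 to PND4 (6 pools), PND5 to PND8 (8 pools) and PND10 to PND14 (6 pools). None of the 6 germ cell markers of the gonadal to spermatogonial list, Ddx4 and Dazl among them, was at 0 in all pools of a window. These markers were also used to call the germ cells, so this is no separate check of cell identity.

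A cyclin is the regulatory subunit of a cyclin-dependent kinase (CDK) and gives the kinase its timing, since cyclins are made and destroyed in turn. D-type cyclins bind Cdk4 and Cdk6 in G1 in response to growth signals, E-type cyclins bind Cdk2 at entry into S phase, Ccna2 acts in S phase and G2, and the B-type cyclins bind Cdk1 to drive division. Ccna1 and Ccnb3 are known mainly from germ cells: Ccna1 is needed for the male meiotic divisions and Ccnb3 is made in early meiosis. Male PGCs divide in the embryonic gonad, stop in G0/G1 before birth, and resume division as spermatogonia after birth, and later enter meiosis.

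The genes lie on 8 chromosomes (mm10, GENCODE M21): Ccna1 at chr3:55045469-55055501 (minus strand), Ccna2 at chr3:36564865-36572150 (minus), Ccnb1 at chr13:100778650-100786570 (minus), Ccnb2 at chr9:70407692-70421547 (minus) and Ccnb3 at chrX:6979652-7041619 (minus). Ccnd1 is at chr7:144929931-144939925 (minus), Ccnd2 at chr6:127125162-127152193 (minus), Ccnd3 at chr17:47505051-47599691 (plus), Ccne1 at chr7:38097984-38107534 (minus) and Ccne2 at chr4:11191351-11204779 (plus).

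The promoters of 4 cyclins are shown because their transcripts moved in opposite directions from mitotic PGCs to the arrest window. Ccnb1 and Ccnb2 were lower in the arrest window, and Ccna1 and Ccnb3 were higher. Each runs from 250 bases before to 50 bases after the start site in RefSeq (GRCm38.p6), 5′ to 3′ on the strand of the gene. Capitals mark any match, on either strand, to CCAAT (the core bound by NF-Y), TTTGAA (the cell-cycle homology region), TTTNNCGC (an E2F core) or AACNGNC (a MYB core). The windows are chr13:100786437-100786736 (minus) for Ccnb1, chr9:70421505-70421804 (minus) for Ccnb2, chr3:55055006-55055305 (minus) for Ccna1 and chrX:7041570-7041869 (minus) for Ccnb3.
Ccnb1: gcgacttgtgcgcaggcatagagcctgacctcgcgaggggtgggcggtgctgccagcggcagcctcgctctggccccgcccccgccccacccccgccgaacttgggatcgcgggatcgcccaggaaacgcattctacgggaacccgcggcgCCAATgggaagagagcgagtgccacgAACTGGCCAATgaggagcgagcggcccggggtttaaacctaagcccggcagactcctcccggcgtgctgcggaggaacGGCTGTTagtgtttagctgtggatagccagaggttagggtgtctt
Ccnb2: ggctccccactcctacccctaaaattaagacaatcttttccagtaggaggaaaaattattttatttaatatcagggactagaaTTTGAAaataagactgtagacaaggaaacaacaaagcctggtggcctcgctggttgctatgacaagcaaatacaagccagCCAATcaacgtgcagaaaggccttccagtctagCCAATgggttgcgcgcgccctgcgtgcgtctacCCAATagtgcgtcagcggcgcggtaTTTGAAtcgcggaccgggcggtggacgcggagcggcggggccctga
Ccna1: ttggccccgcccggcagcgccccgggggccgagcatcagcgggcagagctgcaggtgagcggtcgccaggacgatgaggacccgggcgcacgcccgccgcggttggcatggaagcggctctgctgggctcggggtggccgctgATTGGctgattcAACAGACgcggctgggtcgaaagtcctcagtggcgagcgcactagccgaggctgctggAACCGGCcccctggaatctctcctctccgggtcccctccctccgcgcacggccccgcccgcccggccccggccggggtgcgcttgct
Ccnb3: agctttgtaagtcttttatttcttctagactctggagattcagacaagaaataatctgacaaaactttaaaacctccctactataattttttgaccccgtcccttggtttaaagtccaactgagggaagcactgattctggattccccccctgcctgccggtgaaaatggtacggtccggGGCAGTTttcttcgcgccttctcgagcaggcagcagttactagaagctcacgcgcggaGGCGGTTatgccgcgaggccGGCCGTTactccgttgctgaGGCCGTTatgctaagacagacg

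The Ccnb1 window held 2 CCAAT and 2 AACNGNC matches, and the second CCAAT shares its first base with an AACNGNC match. Ccnb2 held 3 CCAAT and 2 TTTGAA matches, and the later TTTGAA begins 5 bases into the transcript. Ccna1 held 1 CCAAT and 2 AACNGNC matches, and Ccnb3 held 4 AACNGNC matches and none of the other motifs. Among 32851 promoter windows of this length, 37.4% held CCAAT, 17.9% TTTGAA, 5.17% TTTNNCGC and 32.8% AACNGNC. RefSeq windows were matched for 6 of the 10 cyclins, the others being Ccnd3 and Ccne1. Ccne1, also lower in the arrest window, held 0 matches to these motifs. Ccnd3 held 1 CCAAT match in its window at chr17:47593217-47593516 and 0 matches at chr17:47504801-47505100. A match is a run of letters, and no binding was measured.

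**Figure D1:**
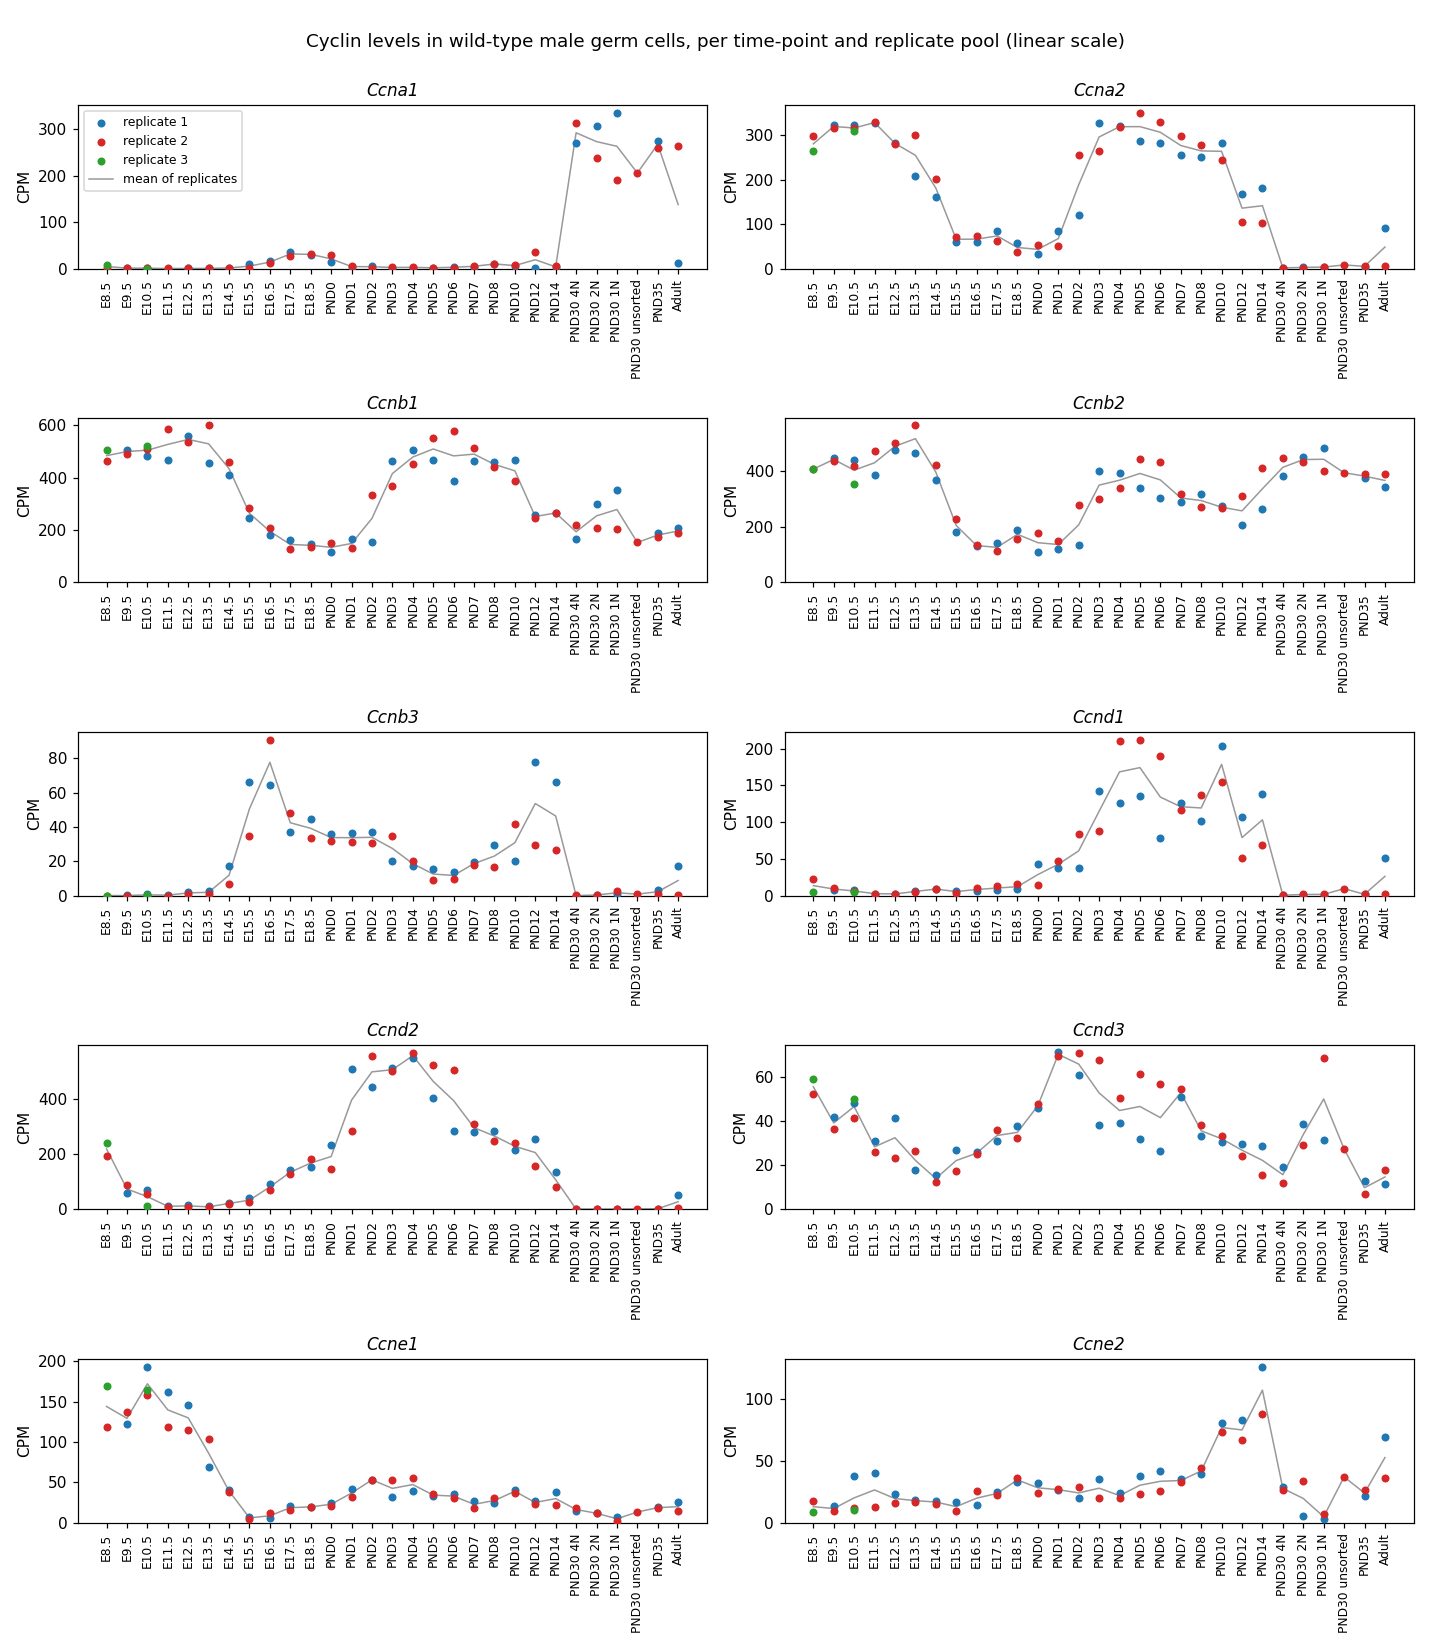
Level of each of the 10 cyclins (CPM) at each time-point, with 1 point for every germ cell pool and a line through the means. Ccna2, Ccnb1, Ccnb2 and Ccne1 dip between E15.5 and PND0, Ccnd1 and Ccnd2 are high after birth, Ccnb3 appears from E14.5 to PND14, and Ccna1 is highest from PND30 on.

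Ccnb1, Ccnb2 and Ccna2 were abundant in dividing germ cells. Ccnb1 had the highest level of the 10 in 30 of the 58 pools, Ccnb2 in 16 and Ccnd2 in 12. Together the 10 genes made 590.3 to 2216 CPM of a pool. Ccna2 was highest at E11.5, with 328 and 329 CPM, Ccnb1 at E12.5, with 557 and 534 CPM, and Ccnb2 at E13.5, with 466 and 565 CPM. For Ccnb1 and Ccnb2 the pools of the next highest time-point overlapped these, and for Ccna2 the next highest, E9.5, was 323 and 316 CPM.

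Between migrating and mitotic PGCs, 1 of the 10 cyclins changed, beside 8.54% of the 27583 genes tested (4.32% lower). The gene was Ccnd2, which fell by 3.04 ± 0.38 (SE) on the log2 scale (edgeR quasi-likelihood test, adjusted p = 1.26e-07). Ccnd2 was 196 and 243 CPM at E8.5, 57.4 and 89.7 CPM at E9.5 and 70.2, 53.9 and 13.04 CPM at E10.5. In mitotic PGCs it ranged from 7.46 to 14.8 CPM, with a median of 9.77. The decline was thus already under way among migrating PGCs, and the 2 windows met at 1 E10.5 pool.

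No other cyclin passed the test between these windows. Ccna2 had medians of 316 and 292 CPM, Ccnb1 of 505 and 546 CPM, and Ccne1 of 158 and 116.3 CPM in migrating and mitotic PGCs. The log2 difference of Ccna2 was -0.02 ± 0.26, that of Ccnb1 0.18 ± 0.17 and that of Ccne1 -0.26 ± 0.16. Larger differences that missed the threshold were -0.71 ± 0.24 for Ccnd3 (adjusted p = 0.0635, edgeR), -1.51 ± 0.68 for Ccnd1 (adjusted p = 0.217, edgeR), -1.48 ± 1.66 for Ccna1 (adjusted p = 1.0, edgeR) and 2.61 ± 2.13 for Ccnb3 (adjusted p = 0.756, edgeR). The count depends on the model, since DESeq2 called these 4 as well as Ccnd2, a trended dispersion called 4 cyclins (without Ccna1), and Ccnd3 passed the test without E12.5 replicate 1 (adjusted p = 0.036, edgeR).

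In the arrest window 7 of the 10 cyclins changed, 3 higher and 4 lower than in mitotic PGCs. Over all genes 49.8% were called, 27.4% higher and 22.4% lower, so that the share of cyclins was not far above the background. The median log2 difference was -0.47 over the 10 cyclins, 1.25 over all genes and -0.40 over the 11369 genes averaging at least 10 CPM. Under other scalings of the counts (DESeq2's size factors or library size alone) the median of genes averaging over 10 CPM moved by 0.48 and 0.63 (log2), and the share of the called genes that were higher rose from 55% to 68.8% and 73.6%. All 7 cyclins kept their direction and their call under both scalings. The windows also differ in the reporter gate, and the part of the gate in these results was not tested.

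Ccna2 ranged from 209 to 329 CPM in mitotic PGCs, with a median of 292. In the arrest window it ranged from 33.7 to 85.5 CPM, with a median of 60.5. The difference was -2.94 ± 0.25 on the log2 scale, or 7.66-fold (adjusted p = 6.8e-13, edgeR). Every arrested pool was below every mitotic one.

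Ccnb1 and Ccnb2 fell together by nearly the same factor but remained well above 0. Ccnb1 went from 456 to 602 CPM (median 546) to 116.9 to 283 CPM (median 156), a log2 difference of -2.29 ± 0.15 (adjusted p = 1.56e-15, edgeR). Ccnb2 went from 386 to 565 CPM (median 474) to 106.9 to 226 CPM (median 147.3), a log2 difference of -2.28 ± 0.16 (adjusted p = 4.85e-15, edgeR). At PND0 the level of Ccnb1 was still 116.9 and 150.05 CPM.

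Ccne1, the E-type cyclin of the embryonic cells, had the largest fold of the 4 that fell. It ranged from 68.9 to 161 CPM in mitotic PGCs (median 116.3) and from 5.08 to 24.7 CPM in the arrest window (median 17.6), 13.4-fold lower (log2 -3.75 ± 0.17, adjusted p = 4.44e-20, edgeR). Ccne2, its close relative, had medians of 17.8 and 24.3 CPM in the same windows and did not pass the test.

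The fall was resolved by single days. Ccna2 was 209 and 301 CPM at E13.5, 161 and 202 CPM at E14.5 and 60.4 and 71.9 CPM at E15.5. Ccne1 was 68.9 and 103.2 CPM at E13.5, 41.1 and 37.4 CPM at E14.5 and 6.93 and 5.08 CPM at E15.5. For both genes the pools of these 3 days did not overlap. Between E13.5 and E14.5 edgeR called 0 of the 10 cyclins, beside 0.163% of all genes, with 2 at an unadjusted p under 0.05, and DESeq2 called 1, Ccne1. Without E13.5 replicate 1, edgeR also called 1.

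Between E14.5 and E15.5, 3 of the 10 cyclins fell, beside 4.23% of all genes called and 2.29% that were lower. Ccne1 fell by 2.92 ± 0.40 on the log2 scale (adjusted p = 3.4e-05, edgeR), Ccna2 by 1.66 ± 0.49 (adjusted p = 0.0458, edgeR) and Ccnb2 by 1.15 ± 0.31 (adjusted p = 0.0271, edgeR). Ccnb2 was 369 and 422 CPM at E14.5 and 181 and 226 CPM at E15.5, and Ccnb1 was 410.0 and 458 CPM and then 244 and 283 CPM. The call of Ccne1 was kept without any 1 of the 4 pools. That of Ccna2 was lost without each of the 4 (adjusted p from 0.0711 to 1.0, edgeR) and under 7 of the other settings, with DESeq2's size factors (0.0716) and library size alone (0.102) among them. That of Ccnb2 was lost without E14.5 replicate 1, E14.5 replicate 2 or E15.5 replicate 1, with DESeq2's size factors (adjusted p = 0.0678, edgeR) and with no filter on low counts (adjusted p = 0.0694, edgeR).

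In cells called somatic in the same collections, 9 pools of the arrest window held 18.005 to 372 CPM of Ccna2 with a median of 205, against 215 in 4 somatic pools of the mitotic window. The highest was at E15.5 and the lowest at PND0, where it was below the germ cell pools, and the share of somatic cells with a Ccna2 UMI, thinned to 50000 UMIs, was 84.4% of 84 cells at E15.5 and 16.8% of 30 cells at PND0. Ccne1 had somatic medians of 48.6 and 25.3 CPM in the mitotic and arrest windows. No test was made between germ and somatic pools.

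Other regulators of division were read in the same comparison. All 7 genes of the proliferation list (Mki67, Top2a, Pcna, Aurka, Aurkb, Plk1, Bub1) were lower in the arrest window. Their median log2 difference was -2.49, against 1.25 over all genes and -0.40 over genes averaging at least 10 CPM. Of the 27 CDKs and CDK regulators, 15 were lower and 8 higher, beside 22.4% and 27.4% of all genes. Cdk1, the kinase of division, fell by 3.73 ± 0.19, from 265 to 333 CPM to 18.4 to 88.1 CPM. Fbxo5, an inhibitor of the ligase that destroys A- and B-type cyclins, fell by 4.50 ± 0.30. Wee2, an inhibitory kinase of Cdk1 known from germ cells, rose by 5.41 ± 0.86, from 0 to 1.82 CPM to 1.33 to 21.2 CPM. Of the 17 other cyclins measured, 6 were lower and 3 higher, and this 52.9% was near the 49.8% of all genes. Ccnf fell by 2.52 ± 0.18, while Ccnjl rose by 4.72 ± 0.35, from 0.08 to 8.39 CPM to 71.1 to 136.5 CPM, and Ccno by 2.67 ± 0.51.

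**Figure D2:**
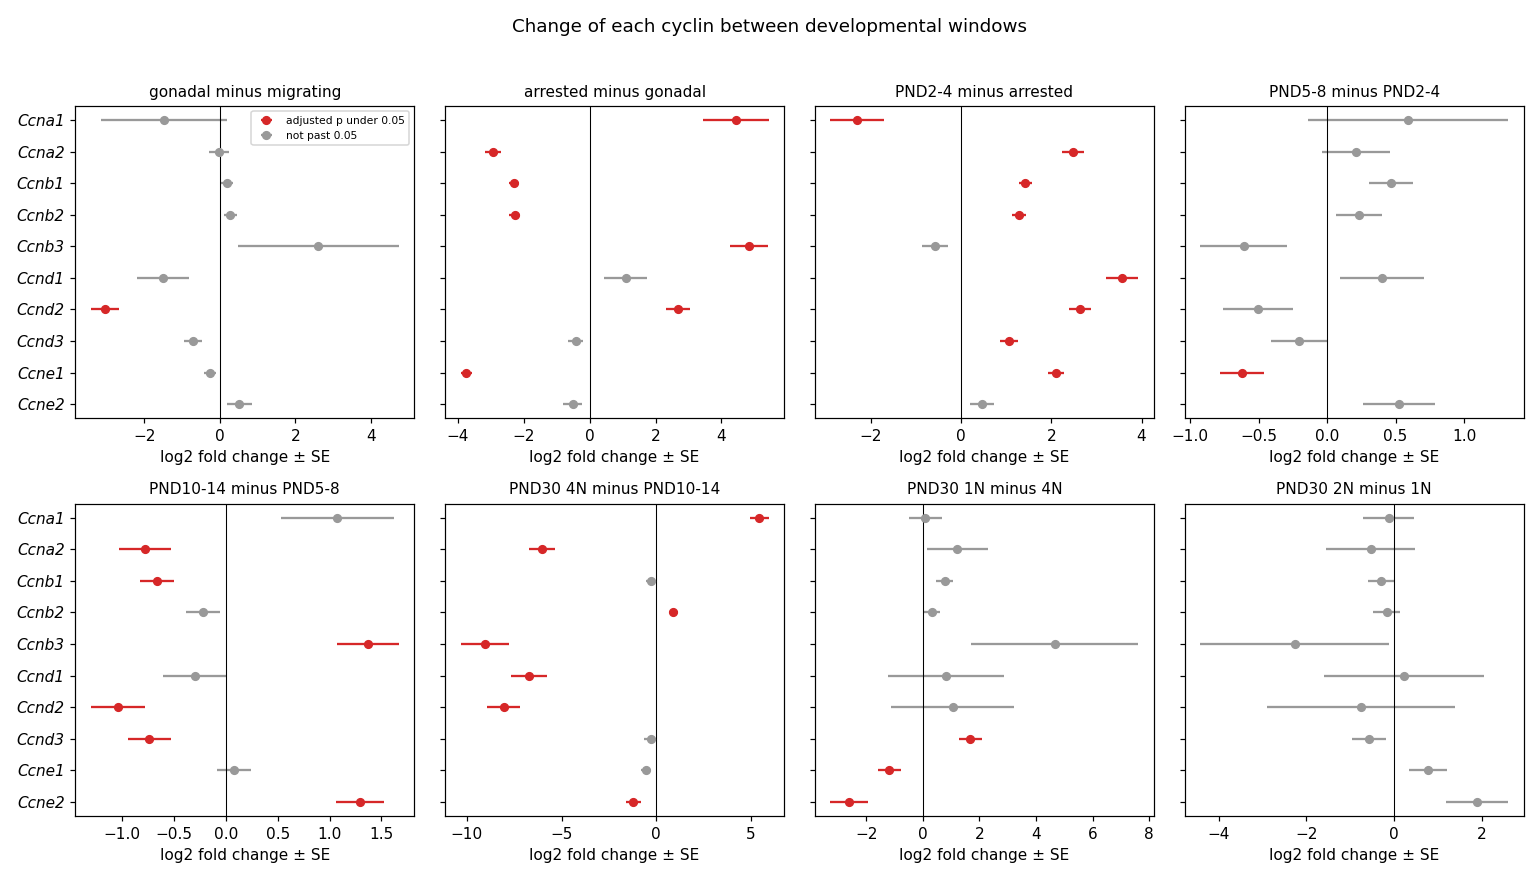
Log2 difference of each of the 10 cyclins (points, with bars of 1 SE) in each comparison of neighbouring windows. Genes past an adjusted p of 0.05 are set apart. In the arrest window these are Ccna2, Ccnb1, Ccnb2 and Ccne1 below 0 and Ccna1, Ccnb3 and Ccnd2 above it. In PND2 to PND4 there are 7 such genes above 0 and 1, Ccna1, below it.

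After birth the cyclins of division came back, and Ccnd1, Ccnd2 and Ccnd3 were also higher than in the arrest window. Of these D-type cyclins, Ccnd2 had already risen before birth. In PND2 to PND4, 8 of the 10 cyclins differed from the arrest window, beside 39.9% of all genes, and 7 of them were higher, beside 21.3% of all genes. The median log2 difference was 1.35 over the 10 cyclins, -0.20 over all genes and 0.28 over the 11369 genes averaging at least 10 CPM. Of the called genes 53.5% were higher, against 37% with DESeq2's size factors and 37.1% with library size alone, which moved the median of genes over 10 CPM by -0.30 and -0.29. The 8 cyclins kept their direction and their call under both, and Ccnb3 passed the test as lower under both (adjusted p = 0.0158 and 0.0228, edgeR).

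Ccna2 rose by 2.48 ± 0.24 on the log2 scale (adjusted p = 1.34e-10, edgeR). Its 6 pools were 121.5 and 256 CPM at PND2, 328 and 264 CPM at PND3, and 320.2 and 318 CPM at PND4, all above the arrest window. The lowest was PND2 replicate 1, the pool of 25 cells. Ccnb1 rose by 1.42 ± 0.15 (adjusted p = 9.59e-10, edgeR), to 154 to 505 CPM with a median of 410 CPM, and Ccnb2 by 1.28 ± 0.16 (adjusted p = 1.95e-08, edgeR), to 135.2 to 398 CPM with a median of 319. Both overlapped the arrest window only at PND2 replicate 1.

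Ccne1 rose by 2.10 ± 0.18 (adjusted p = 3.54e-12, edgeR), to 32.3 to 55.04 CPM. This was above all arrested pools and below all mitotic PGC pools, the lowest of which was 68.9 CPM. Cdk1 rose by 3.12 ± 0.19, to 122.9 to 330 CPM, and 6 of the 7 proliferation genes rose.

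The neighbouring days around birth gave no call for a cyclin. Between PND0 and PND1, 0 of 10 were called by edgeR (3 at an unadjusted p under 0.05, 0 by DESeq2), beside 1.38% of all genes. Between PND1 and PND2, 0 of 10 were called by edgeR (4 at an unadjusted p under 0.05, 0 by DESeq2), beside 0.0943% of all genes. Ccna2 was 33.7 and 53.5 CPM at PND0, 84.7 and 50.7 CPM at PND1 and 121.5 and 256 CPM at PND2. Ccne1 was 24.7 and 20.99 CPM, then 42.1 and 31.3 CPM, then 53.3 and 52.9 CPM.

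Of the D-type cyclins, Ccnd2 had risen by the arrest window. It was 10.0 and 7.46 CPM at E13.5, 22.7 and 19.4 CPM at E14.5, 40.5 and 25.5 CPM at E15.5, 92.96 and 69.4 CPM at E16.5 and 141.5 and 128.3 CPM at E17.5. It was 152 and 184 CPM at E18.5, 235 and 148 CPM at PND0 and 510 and 285 CPM at PND1. The arrest window was 2.68 ± 0.36 above mitotic PGCs on the log2 scale (adjusted p = 4.1e-08, edgeR), and the lowest arrested pool, 25.5 CPM, was above the highest mitotic one, 14.8 CPM. PND2 to PND4, at 444 to 569 CPM, was a further 2.64 ± 0.25 higher (adjusted p = 2.74e-11, edgeR), again with no overlap. Ccnd2 had the highest level of the 10 cyclins in all 6 of these pools.

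Ccnd2 is also a gene of the somatic cells around the germ cells, at 397 to 911 CPM in 9 somatic pools of the arrest window. The summed level of the 7 Sertoli cell markers in the germ cell pools was 17.8 to 44.4 CPM in mitotic PGCs and 29.99 to 316 CPM in the arrest window, against 370 to 2583 CPM in the somatic pools of the arrest window. With a stricter germ cell call the Ccnd2 difference was 2.58 (adjusted p = 1.98e-07, edgeR). In single cells thinned to 50000 UMIs, 95.6% ± 3.6 (SD, n = 2) of E17.5 germ cells had a Ccnd2 UMI, against 21.9% ± 6.2 (SD, n = 2) at E13.5.

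Ccnd1 rose after birth. It was 4.29 to 43.4 CPM in the arrest window (median 9.85), with PND0 replicate 1 the highest pool, and 37.8 to 211 CPM in PND2 to PND4 (median 106.9), 3.57 ± 0.35 higher on the log2 scale (adjusted p = 1.47e-10, edgeR). Somatic pools of PND2 to PND4 held 7.22 to 12.52 CPM, below every germ cell pool of those days. Between mitotic PGCs and the arrest window Ccnd1 differed by 1.09 ± 0.66 (adjusted p = 0.186, edgeR), and it passed the test with library size alone (adjusted p = 0.0343, edgeR), DESeq2's size factors (adjusted p = 0.0224, edgeR), a trended dispersion (adjusted p = 0.0233, edgeR) and DESeq2. Over that result's alternatives the adjusted p ranged from 0.000168 (DESeq2) to 0.327 (edgeR).

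The change of Ccnd3 was the smallest of the D-type cyclins. It had a median of 31.7 CPM in the arrest window and 55.9 CPM in PND2 to PND4, 1.07 ± 0.20 higher (adjusted p = 3.89e-05, edgeR), with 71.3 and 69.6 CPM at PND1 as the highest time-point. Cdkn1a, an inhibitor of the G1 kinases, rose by 2.78 ± 0.26 in the same comparison, to 91.4 to 204 CPM.

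From PND2 to PND4 to PND5 to PND8 most cyclins were not called. Ccnd2 was among these, at 444 to 569 CPM in PND2 to PND4. It was 406 and 526 CPM at PND5 and 285 and 506 CPM at PND6. By PND7 it was 282 and 312 CPM, and at PND8 285 and 248 CPM. Of the 10, 1 was called, beside 11.3% of all genes (7.23% lower): Ccne1 fell by 0.62 ± 0.16 (adjusted p = 0.00872, edgeR), from a median of 52.9 to 30.5 CPM. That call was lost without PND2 replicate 2, PND3 replicate 2, PND6 replicate 1, PND7 replicate 2 or PND8 replicate 1 (adjusted p from 0.055 to 0.189, edgeR) and with a trended dispersion (adjusted p = 0.0508, edgeR). The difference of Ccnb1 was 0.46 ± 0.16 (adjusted p = 0.0552, edgeR), and it passed the test without PND2 replicate 2, PND3 replicate 1 or PND6 replicate 1. Cdk6, a partner of D-type cyclins, rose by 1.29 ± 0.20 from a mean of 24.2 to 59.5 CPM, and Cdkn1a fell by 1.29 ± 0.25.

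Between PND5 to PND8 and PND10 to PND14, 6 of the 10 cyclins changed, beside 15% of all genes, with 2 higher (9.1% of all genes) and 4 lower (5.88%). Ccna2 fell by 0.78 ± 0.25, Ccnb1 by 0.66 ± 0.16, Ccnd2 by 1.04 ± 0.26 and Ccnd3 by 0.74 ± 0.21. Ccnb3 rose by 1.37 ± 0.30 and Ccne2 by 1.29 ± 0.23. The adjusted p (edgeR) ran from 0.000106 for Ccne2 to 0.0285 for Ccna2. The call of Ccna2 was lost without any 1 of 12 of the 14 pools (adjusted p from 0.0573 to 0.199, edgeR), with no filter on low counts (adjusted p = 0.0746, edgeR) and with a trended dispersion (adjusted p = 0.058, edgeR). Ccnd3 lost its call without any 1 of 8 pools (adjusted p from 0.0545 to 0.106, edgeR), Ccnb1 without 3 and Ccnd2 without 1. Ccnb3 was not called by DESeq2 (adjusted p = 0.0795) or with a trended dispersion (adjusted p = 0.111, edgeR).

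Ccne2 was the 1 cyclin of this comparison with no overlap, and no such share was taken over all genes. It was 22.8 to 43.96 CPM in PND5 to PND8 and 80.6 and 72.9 CPM at PND10, 82.5 and 67.05 CPM at PND12 and 125.9 and 87.8 CPM at PND14. The highest of these pools, PND14 replicate 1, held 207 cells sorted as 2N and 186 sorted as 4N. Ccna2 was 283 and 244 CPM at PND10, 167 and 105.1 CPM at PND12 and 180.4 and 102.8 CPM at PND14, so that its fall lay in the later days. Without the PND12 and PND14 pools, a check added after seeing the data, 0 of the 10 cyclins were called (534 of all genes). With 1 pool left out, 3 were called without PND10 replicate 2 or PND12 replicate 2. The calls of Ccna2, Ccnb1 and Ccnd3 were also lost without PND12 replicate 1. The Sertoli markers summed to 74.5 to 520 CPM in the germ cell pools of PND10 to PND14 and 53.1 to 308 CPM in those of PND5 to PND8, and their part in these results was not tested. Spdya, a Cdk2 activator of meiosis, rose by 2.59 ± 0.28 and Cdkn2c, an inhibitor of Cdk4 and Cdk6, by 2.41 ± 0.32.

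The germ-cell cyclins Ccna1 and Ccnb3 rose in the arrest window, where Ccna2, Ccnb1, Ccnb2 and Ccne1 fell. Ccnb3 was between 0 and 2.93 CPM in all 13 pools up to E13.5. It was 17.1 and 6.72 CPM at E14.5, 66.2 and 34.99 CPM at E15.5 and 64.5 and 90.8 CPM at E16.5, its highest time-point. It was 35.7 and 31.995 CPM at PND0, 17.4 and 19.9 CPM at PND4 and 9.40 CPM in the lowest PND5 pool. The arrest window was 4.85 ± 0.58 above mitotic PGCs on the log2 scale (adjusted p = 1.66e-09, edgeR), and the lowest arrested pool, 31.995 CPM, stood above the highest mitotic one. Somatic pools of the arrest window held 0 to 4.34 CPM.

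Ccnb3 rose a second time at PND10 to PND14. It was 20.003 and 41.6 CPM at PND10, 77.9 and 29.4 CPM at PND12 and 66.2 and 26.6 CPM at PND14. On each of these days 1 replicate lay in or at the edge of the range of PND5 to PND8 (9.40 to 29.3 CPM), and the replicates of PND14 were not gated alike.

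Ccna1 showed the same early rise at a lower level. It was at most 0.78 CPM in mitotic PGCs, and 9.59 and 1.62 CPM at E15.5, 16.6 and 11.8 CPM at E16.5, 36.3 and 27.2 CPM at E17.5 and 29.4 and 32.4 CPM at E18.5. The difference was 4.44 ± 0.99 on the log2 scale (adjusted p = 0.000196, edgeR). Somatic pools of the arrest window held 0.09 to 9.66 CPM, so that the lowest germ cell pools lay within the somatic range and those of E16.5 to PND0 above it. Ccna1 then fell by 2.31 ± 0.59 (adjusted p = 0.00131, edgeR) to 1.24 to 6.06 CPM in PND2 to PND4, a call lost without E15.5 replicate 1 (adjusted p = 0.091, edgeR).

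Ccna1, Ccnb1 and Ccnb2 were the most abundant cyclins of the PND30 fractions. In 4N cells of PND30 (the DNA content of primary spermatocytes), 7 of the 10 cyclins differed from PND10 to PND14, beside 56.3% of all genes, with 2 higher (30.7% of all genes) and 5 lower (25.6%). Ccna1 was 271 and 314 CPM against 2.54 to 36.1 CPM before, 5.45 ± 0.48 higher on the log2 scale or 43.7-fold (adjusted p = 3.69e-12, edgeR). Ccnb2 was 380 and 445 CPM against 205 to 409 CPM, 0.89 ± 0.24 higher (adjusted p = 0.0015, edgeR), with overlap. The 2 groups differ in age, in the Hoechst gate and in the mice.

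Ccna2, Ccnd1, Ccnd2 and Ccnb3 were close to absent from the 4N cells. Ccna2 was 2.05 and 1.80 CPM, a log2 difference of -6.03 ± 0.68 (adjusted p = 1.79e-09, edgeR). Ccnd1 was 0.86 and 0.66 CPM, a difference of -6.71 ± 0.94 (adjusted p = 1.21e-07, edgeR), and Ccnd2 was 0.42 and 0.62 CPM, a difference of -8.07 ± 0.88 (adjusted p = 6.2e-10, edgeR). Ccnb3 had 1 and 5 UMIs in the 2 pools, 0.01 and 0.17 CPM, against 20.003 to 77.9 CPM before. Ccne2 fell by 1.21 ± 0.39, to 28.8 and 26.5 CPM (adjusted p = 0.00704, edgeR), a call lost with DESeq2's size factors (adjusted p = 0.127, edgeR), with DESeq2 (adjusted p = 0.174), without either 4N pool (adjusted p = 0.0614 and 0.0565, edgeR) and without the PND12 and PND14 pools (adjusted p = 0.07, edgeR).

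Ccnb1, Ccnd3 and Ccne1 were not called there. Ccnb1 was 166 and 219 CPM, below all pools of PND10 to PND14 (247 to 466 CPM), with a log2 difference of -0.29 ± 0.25 that turned to 0.23 with DESeq2's size factors and to -0.67 (past the test) with library size alone. These scalings moved the median of genes over 10 CPM by 0.50 and -0.38. Of the 17 other cyclins, 11 were lower and 4 higher in the 4N cells, or 88.2% beside 56.3% of all genes. Ccng1 fell by 5.13 ± 0.57, from 64.5 to 199 CPM to 2.24 and 2.42 CPM, and Ccnj by 3.59 ± 0.55. Of the 27 genes of the CDK list, 9 were lower and 6 higher, and this 55.6% was at the background of 56.3%. Cdkn1b was 0.07 and 0.15 CPM against 2.52 to 17.98 CPM.

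**Figure D3:**
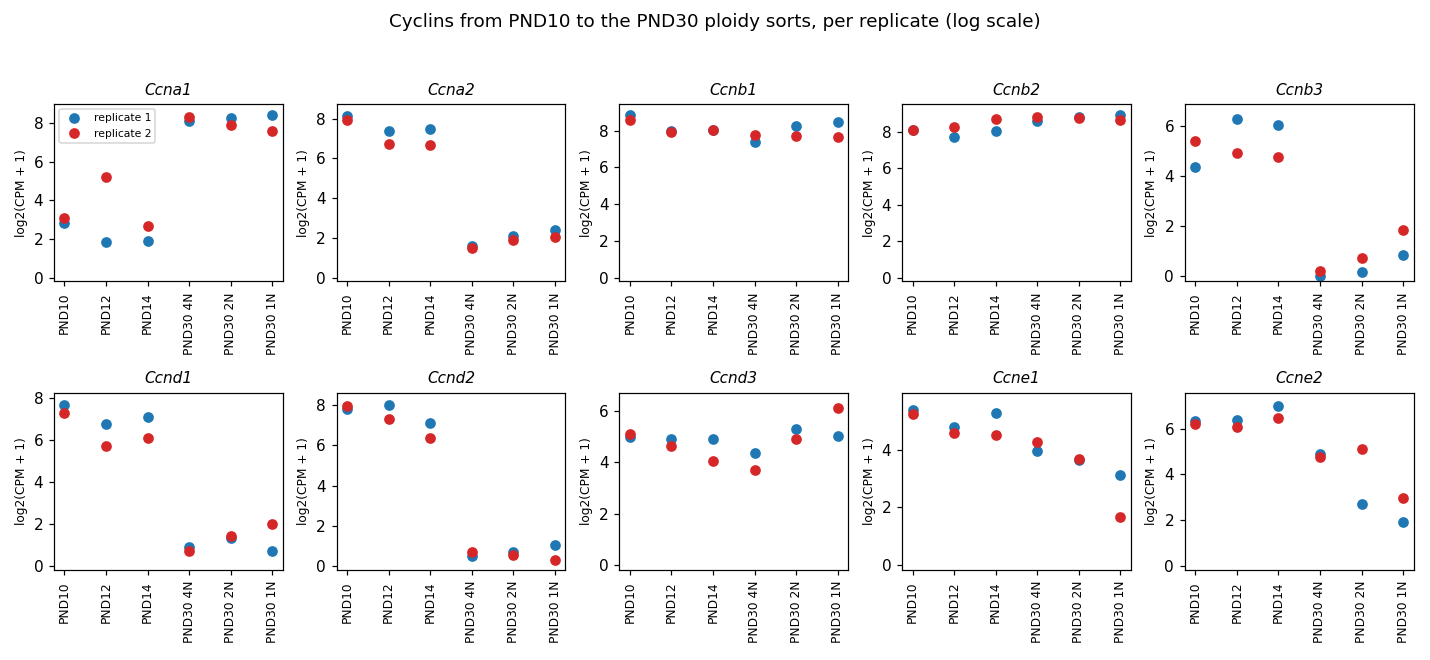
Level of the 10 cyclins, computed from CPM, in the 4N, 2N and 1N cells of PND30, with 1 point for each of 2 mice. Ccna1, Ccnb1 and Ccnb2 stay between 166 and 483 CPM in every pool of these fractions. Ccne2 is lower in both 1N pools than in both 4N pools.

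From 4N to 1N cells (round spermatids by their DNA content), 3 of the 10 cyclins changed, beside 18.2% of all genes, with 1 higher (9.6% of all genes) and 2 lower (8.63%). Ccnd3 was 19.4 and 11.98 CPM in 4N cells and 31.5 and 68.8 CPM in 1N cells, 1.68 ± 0.41 higher on the log2 scale (adjusted p = 0.00347, edgeR). Ccne2 fell from 28.8 and 26.5 CPM to 2.80 and 6.84 CPM, by 2.61 ± 0.67 (adjusted p = 0.00463, edgeR). Ccne1 fell from 14.6 and 18.1 CPM to 7.65 and 2.14 CPM, by 1.19 ± 0.41 (adjusted p = 0.0409, edgeR), a call lost with DESeq2's size factors (adjusted p = 0.138, edgeR) and without 3 of the 4 pools (adjusted p from 0.0876 to 0.319, edgeR). The call of Ccnd3 was lost without 4N replicate 2 or 1N replicate 2 (adjusted p = 0.0609 and 0.102, edgeR) and that of Ccne2 without 1N replicate 1 (adjusted p = 0.202, edgeR).

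The 3 fractions of a replicate came from 1 mouse. With the mouse as a replicate block, fitted on the PND30 pools alone, 4 cyclins were called and 8509 genes in place of 5029. The fourth was Ccnb3 (adjusted p = 0.000979, edgeR), with 0.82 and 2.62 CPM in 1N cells against 0.01 and 0.17 CPM, or 43 and 44 UMIs against 1 and 5. In the fit over all pools its adjusted p was 0.337 (edgeR). It also passed the test on PND30 alone without the block (adjusted p = 0.0244, edgeR), and over all pools with a trended dispersion (adjusted p = 0.0195, edgeR) and DESeq2 (adjusted p = 0.000254). Without PND30 4N replicate 2 only 1 cyclin was called.

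The cyclins that were abundant in 4N cells were also abundant in 1N cells. Ccna1 was 336 and 191 CPM in 1N cells, with a log2 difference of 0.08 ± 0.58 that turned to -0.13 with library size alone and to -0.023 with the mouse as a block on PND30 alone. Ccnb2 was 483 and 400 CPM, with a difference of 0.30 ± 0.30. Ccnb1 was 354 and 202 CPM, with a difference of 0.77 ± 0.30 (adjusted p = 0.0739, edgeR), and passed the test with DESeq2. That method called 7 cyclins here, beside 5662 of the 27583 genes. In 1N cells replicate 1 was above replicate 2 for all 3 genes.

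Between 2N and 1N cells 0 of the 10 cyclins were called by edgeR (1 at an unadjusted p under 0.05, 0 by DESeq2), beside 0.334% of all genes, and 1 was called without 2N replicate 1. In 2N cells Ccna1 was 308 and 239 CPM, Ccnb2 450.1 and 430.5 CPM and Ccne2 5.58 and 33.6 CPM. Cdk2, the partner of Ccna1 and the E-type cyclins, was 118.1 and 125.04 CPM in 4N cells and 15.9 and 19.5 CPM in 1N cells, a log2 difference of -2.62 ± 0.29 (adjusted p = 5.83e-08, edgeR), and was higher in 2N than in 1N cells by 1.31 ± 0.29. Cdkn1c, a CDK inhibitor, rose by 3.01 ± 0.53 from 4N to 1N cells.

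To see how many cells carried each transcript, each cell was thinned to 50000 UMIs, and 343 germ cells with fewer were left out. The share of cells with a Ccna1 UMI was 1.65% ± 0.71 (SD, n = 2) at E12.5 (3.63% without thinning), below the 12.8% of 33 somatic cells of that day, and is read as background. It was 50.5% ± 7.9 (SD, n = 2) at E17.5 (68.7% without thinning) against 7.80% of 62 somatic cells, and 98.2% ± 0.66 (SD, n = 2) in 4N cells of PND30.

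Ccnb3 was seen in 76.2% ± 11 (SD, n = 2) of E16.5 germ cells (85.7% without thinning) against 9.25% of 87 somatic cells, and in 36.6% ± 7.1 (SD, n = 2) at PND14. Ccnd1 was seen in 95.4% ± 2.5 (SD, n = 2) at PND4 against 31.5% of 35 somatic cells. Ccne1 was seen in 96.7% ± 0.21 (SD, n = 3) at E10.5 and in 13.9% ± 2.2 (SD, n = 2) at E15.5, the latter below the 29.3% of 84 somatic cells. Ccna2 was still seen in 61.7% ± 15 (SD, n = 2) of germ cells at PND0 and in 7.45% ± 0.15 (SD, n = 2) of 4N cells at PND30 (24.1% without thinning).

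**Figure D4:**
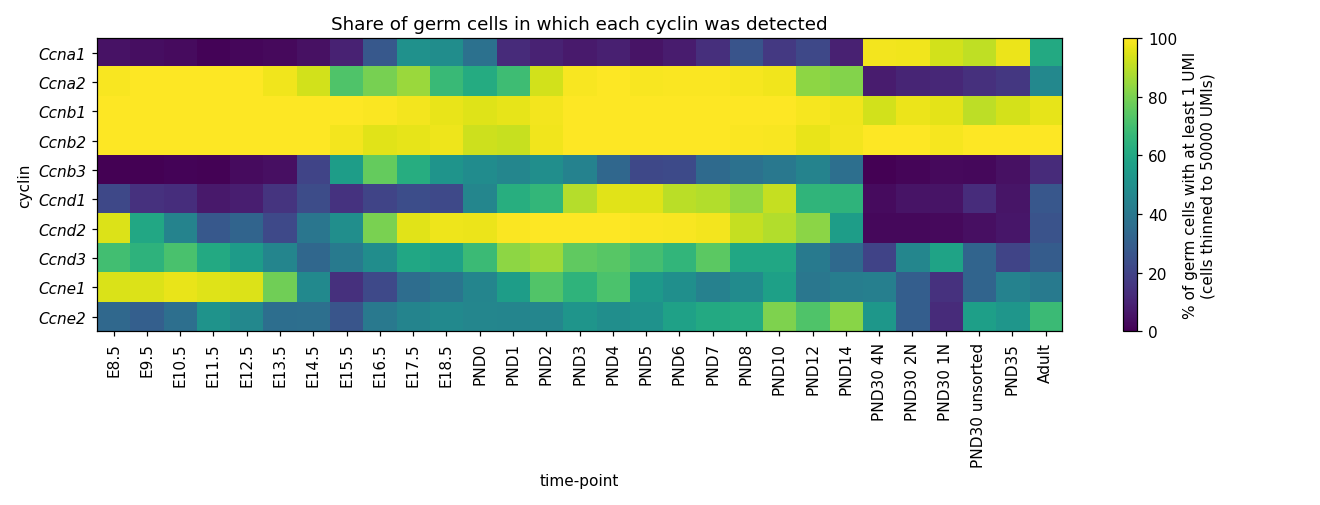
Share of germ cells with at least 1 UMI of each cyclin at each time-point, in percent, as the mean over pools. Every cell was thinned to 50000 UMIs. Ccnb1 and Ccnb2 are seen in over 90 percent of cells throughout, while Ccna1, Ccnb3, Ccnd1, Ccnd2 and Ccne1 move over most of the scale.

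The genes most like each cyclin were sought over the 58 pools, among 11369 genes averaging at least 10 CPM, by the Pearson correlation of log2(CPM + 1). The pools of a time-point share tissue and gate, so the values only describe the course. Ccna2 was nearest to Tyms (r = 0.982), a thymidylate synthase of S phase, and to Mcm2 and Mcm5, subunits of the replicative helicase. Ccnb1 was nearest to Ube2c (r = 0.947), a ubiquitin-conjugating enzyme that acts on cyclins, and Ccnb2 to the mitotic kinase gene Aurka (r = 0.926) and to Cdca3.

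Ccna1 was nearest to Fam20a (r = 0.970), Lrrc63 and Tekt3, the latter a tektin of the sperm flagellum. Ccnb3 was nearest to Rspo4 (r = 0.944) and to Tex15 (r = 0.943), a gene needed in meiosis. Ccnd2 was nearest to Gnat2 (r = 0.970) and Ccnd1 to Mbnl3 (r = 0.936). Ccnd3 and Ccne2 had no gene as close, with Limk2 (r = 0.744) and Rnf20 (r = 0.789) as the nearest. Among the cyclins themselves Ccnd1 and Ccnd2 ran together (r = 0.846) and Ccna1 and Ccna2 ran against each other (r = -0.928).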

How the data were processed

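Single cells were profiled by STRT-seq, a modified SMART-seq2 method that tags the 3′ end of each transcript with a UMI. Per the labels and the methods, the authors trimmed the reads, aligned them to mm10 with STAR, assigned uniquely aligned reads to genes with featureCounts and counted UMIs with UMI-tools, and they deposited 1 table of raw UMI counts per gene and cell. Time-point, genotype, replicate, gate and ploidy came from the deposited table of cells, since the labels of the libraries give none. 0 columns could not be mapped to a sample.

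Cells within the study's limits were called germ cells where their best germ cell marker score (mean log2(CPM + 1)) was over 4 and more than 1 above their best somatic score, and before birth also passed the reporter gate. 265 cells lay within 1 of that border. Counts were summed per time-point and replicate (at least 10 cells), and 27583 genes were fitted over all pools with edgeR 4.0.16 (TMM scaling, filterByExpr, quasi-likelihood test, Benjamini-Hochberg adjustment over all genes, threshold 0.05) in R 4.3.3. The SE of a log2 difference is its size divided by the square root of F. DESeq2 1.42.0, other scalings, filters, cell calls and pools were alternatives. Doublets were not called, as cells were picked or sorted singly into wells.

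The members and gene lists were chosen with earlier results of these data known. All 10 cyclins are named, and up to 3 genes of the CDK list and of the list of other cyclins with the largest called difference in a comparison. The genes most like Ccne1 are not reported here. Replicates are separate mice after birth and separate pools of embryos before. Fractions of PND30 with 1 number come from 1 mouse, and their deviations from the group means correlated at 0.318 (4N and 2N), 0.102 (4N and 1N) and 0.211 (2N and 1N). Elsewhere a number pairs nothing. The alternatives added after seeing the data were no PND12 and PND14 pools, no pools under 30 cells, PND30 alone without a block, a trended dispersion and library size alone. A UMI is a molecule, and no interval for counting error is given for pools, whose spread between replicates is shown instead.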

Additional observations from a re-analysis of the deposited data

Results flagged for a closer look

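In each window with 4 to 10 pools, a pool was singled out where its gap to the nearest other pool, set against the whole range of the window, passed Dixon's 95% limit. Chance passes it in about 1 of 20 cases, and here 10 of 60 combinations of window and cyclin passed.

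Among migrating PGCs, E8.5 replicate 3, the pool of 13 cells, was the highest for Ccna1 with 8.13 CPM and the lowest for Ccna2 with 264 CPM. Its summed level of 6 endoderm markers was 1243 CPM against 120.7 CPM in E8.5 replicate 2. E8.5 replicate 2 was the highest for Ccnd1 with 22.2 CPM, and E10.5 replicate 1 was the highest for Ccnb3 with 1.23 CPM and for Ccne2 with 37.7 CPM.

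In mitotic PGCs, E11.5 replicate 1 held 0 CPM of Ccna1, below all others. In the arrest window PND0 replicate 1 was the highest for Ccnd1 with 43.4 CPM. PND2 replicate 1, the pool of 25 cells, was the lowest for Ccna2 with 121.5 CPM in PND2 to PND4. In PND10 to PND14, PND12 replicate 2 was the highest for Ccna1 with 36.1 CPM and PND14 replicate 1 the highest for Ccne2 with 125.9 CPM.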

How the results depend on the processing

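Of the 36 calls of a cyclin in a comparison, 32 were kept with DESeq2's size factors (RLE), 35 with library size alone and 34 with DESeq2. No called cyclin changed its direction under any alternative. Values that changed sign were uncalled: Ccnb1 in PND30 4N against PND10 to PND14 became 0.23 with RLE factors and 0.24 with DESeq2, and Ccnd1 in 1N against 4N cells became -0.091 without 1N replicate 2 and 1.97 without 1N replicate 1. Ccna2 in mitotic against migrating PGCs became 0.053 with the reporter gate alone and ran from -0.14 to 0.0775 with 1 pool left out, with a positive sign without E8.5 replicate 2 (0.0357) or E13.5 replicate 1 (0.0775). Ccna1 in 1N against 4N cells became -0.13 with library size alone and -0.023 on PND30 alone with the replicate block, and ran from -0.51 to 0.48 with 1 pool left out, negative only without 1N replicate 1. The cause was not tested. Few UMIs of Ccnb3, Ccnd1 and Ccnd2 were counted in the sorted PND30 fractions, so their differences there rest on small counts. Among settings that leave out no pool, the called share of the 27583 genes or number of called cyclins moved by over 1.5 times here. DESeq2 gave 19.2% and 5 cyclins for mitotic against migrating PGCs, and 7 cyclins beside 5662 genes for 1N against 4N. It also gave 3.79% for 2N against 1N, 3.34% and 1 cyclin for E14.5 against E13.5 and 9.97% for E15.5 against E14.5. For PND1 against PND0 it gave 0.388%, and for PND2 against PND1 0.185%. A trended dispersion gave 13.7% and 4 cyclins for mitotic against migrating PGCs, 0 cyclins for PND5 to PND8, 2.31% for 2N against 1N, 0.558% for E14.5, 2.75% for E15.5, 0% for PND1 and 0.00725% for PND2. Library size alone gave 2 cyclins for mitotic against migrating PGCs and for PND5 to PND8, and 1.03% for 2N against 1N, where RLE factors gave 0.573%. The use of 1 mean per window gave 2 cyclins for mitotic against migrating PGCs. No filter on low counts gave 2 cyclins for PND5 to PND8, 1 cyclin for E15.5, 0.0363% for 2N against 1N, 0.812% for PND1 and 0.058% for PND2. The reporter gate alone gave 0.163% for 2N against 1N, 2.75% for E15.5, 0.783% for PND1 and 0.0544% for PND2, and a stricter germ cell margin 0.181% for 2N against 1N. Without PND12 and PND14, PND10 to PND14 against PND5 to PND8 had 1.94% and 0 cyclins.

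Leaving out 1 pool at a time gave 1 to 2 cyclins and 5.3% to 8.12% of genes for mitotic against migrating PGCs, 7 to 8 and 41.7% to 48.8% for the arrest window, 7 to 8 and 30.7% to 39.2% for PND2 to PND4, 0 to 2 and 5.7% to 12.3% for PND5 to PND8, 3 to 6 and 6.24% to 17.45% for PND10 to PND14 and 6 to 7 and 38.8% to 56.9% for PND30 4N. It gave 1 to 2 cyclins and 9.34% to 12.54% for 1N against 4N, 0 to 1 and 0% to 1.16% for 2N against 1N, 0 to 1 and 0.00363% to 0.381% for E14.5, 1 to 2 and 0.0544% to 5.52% for E15.5, 0 cyclins and 0.00363% to 4.69% for PND1 and 0 cyclins and 0% to 1.56% for PND2.

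The mouse as a replicate block on PND30 alone called 30.8% of genes (8509) for 1N against 4N and 0.0145% (4) for 2N against 1N, where PND30 alone without a block called 0%. Elsewhere the number is shared only by name (276 pairs of time-points, median correlation 0.00326, from -0.269 to 0.556), and with the block E15.5 against E14.5 kept 2 of 3 cyclins, Ccna2 missing at an adjusted p of 0.0528 (edgeR). No other call of a cyclin changed with that block. The share of called genes that were higher moved by over 10 points with scaling in further comparisons: from 35.9% to 23.1% (RLE) and 25.1% (library size alone) for PND5 to PND8, from 52.7% to 73% and 40.7% for 1N against 4N, from 84.8% to 27.2% and 95.1% for 2N against 1N, from 71.1% to 75% and 82.8% for E14.5, from 45.7% to 69.2% and 67% for E15.5, from 47.9% to 31.6% and 30.7% for PND1 and from 57.7% to 43.5% and 42.9% for PND2.

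Highest levels with TMM-scaled CPM were 368 for Ccna1, 373 for Ccna2, 618 for Ccnb1, 624 for Ccnb2, 52.8 for Ccnd3 and 202 for Ccne1, and as a mean of per-cell CPM 320.5 for Ccna2, 589 for Ccnb1, 659.7 for Ccnd2 and 65.1 for Ccnd3. Highest shares without thinning were 98.9% for Ccna1, 100% for Ccna2 and Ccnb1, 98.2% for Ccnd1, 93.6% for Ccnd3, 98.98% for Ccne1 and 92.9% for Ccne2. With Spearman's rho, 0 of the 3 nearest genes were shared for Ccna1 and Ccne1 and 2 for Ccnb1, Ccnd1 and Ccnd2.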

Other observations

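PND14 was collected through different gates. In replicate 1, cells sorted as 4N held 108.3 CPM of Ccnb3 and 157 CPM of Ccne2, and cells sorted as 2N held 24.6 and 94.7 CPM of these genes. Ccnd2 was 66.4 CPM in the 4N cells and 201 CPM in the 2N cells, and Ccna2 was 198 and 163 CPM. Replicate 2 held 2N cells and cells with no gate, in which Ccnb3 was 28.6 and 25.8 CPM and Ccnd2 was 80.1 and 80.7 CPM. Each value is 1 mouse, with no test.

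The adult replicates differed most in Ccna1, Ccna2, Ccnb3, Ccnd1 and Ccnd2. They were closer in Ccnb1, at 205 and 187 CPM, and in Ccnb2, at 341 and 389 CPM. Replicate 1 held 12.2 CPM of Ccna1, 91.2 of Ccna2, 51.3 of Ccnd2 and 17.1 of Ccnb3, and replicate 2 held 264, 6.05, 3.28 and 0.66 CPM. The Sertoli markers summed to 225 and 13.2 CPM and the Leydig markers to 494 and 7.20 CPM in replicates 1 and 2. At PND35 the replicates were close, with 275 and 260.2 CPM of Ccna1, 4.90 and 5.80 CPM of Ccna2 and 375 and 387 CPM of Ccnb2. In the unsorted cells of PND30, Ccna1 was 206 CPM and Ccnd1 9.60 CPM.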
